A study of Sus scrofa with 48 samples.

Results

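The genes described here are named for the mitochondrial ribosome and for the TOM and TIM complexes that carry proteins into mitochondria. They were all genes whose only annotated symbol begins with MRPL (large ribosomal subunit), MRPS (small ribosomal subunit), TOMM (outer membrane translocase) or TIMM (inner membrane translocases and their chaperones), and each was read by the brightest of its probe sets over all arrays. This gave 76 of the 6765 genes named on the array: 36 MRPL, 22 MRPS, 7 TOMM and 11 TIMM genes. All are counted by symbol, also MRPS30, MRPS36 and TOMM34, whose proteins are placed elsewhere, as given below. Liver and fat were taken from 24 Yorkshire gilts, and RNA of each tissue was hybridised to its own Affymetrix porcine array, 48 arrays in all. At 6 months of age, they belonged to a line bred for low residual feed intake. For 3 days they were either fasted or fed freely. They were homozygous for N298 or for D298 of MC4R, the melanocortin receptor through which the brain restrains feeding, and D298 is the form that the series calls wild type. The groups were fasted N298, fasted D298, fed N298 and fed D298, with 6 gilts in each, and their fat and liver arrays make 8 groups. The labels used here give no depot for the fat, and the variant was carried in every cell of these animals.

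Mitochondria keep a small genome of their own, and the few proteins it encodes, all of them core subunits of the respiratory chain and the ATP synthase, are made on ribosomes found only inside the organelle. Every protein of these ribosomes is encoded in the nucleus, made in the cytosol and imported. The TOM complex receives almost all such proteins at the outer membrane. The TIM23 complex then takes those with a presequence into the matrix, while the TIM22 complex, served by small chaperones of the intermembrane space, inserts carrier proteins into the inner membrane. White fat cells hold fewer mitochondria than liver cells, and mitochondrial content in both tissues is known to change with nutrition.

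The values are MAS5 signals, which were set by the authors to 1 trimmed mean of about 500 on every array, so a difference is relative to the other transcripts of that tissue. All differences are on the log2 scale of these signals, and signals of different genes were not set against each other, since each probe set has its own brightness. A gene was called where the adjusted p of limma's moderated test, over 23999 probe sets, was under 0.05. The labelled tissues matched their markers, with all 6 measured adipocyte markers higher and all 9 hepatocyte markers lower in fat. The median signal of an array was 159 to 192 in fat and 122 to 149 in liver. By marker levels 4 fat arrays stood apart with hepatocyte transcripts (1 of 12 fasted, 3 of 12 fed). In all, 12 fat arrays are called rich in skeletal muscle transcripts here (6 of 12 fasted, 6 of 12 fed), and the 4 were among these 12. Their mean log2 of muscle markers was above 10, a cutoff set after seeing the data. They did not stand apart, since the arrays nearest the cutoff were at 9.56 and 10.17. Of the 76 genes, 75 were brighter than the median probe set of the array; MRPS23 was not.

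In fasted fat most of these genes were lower. Of the 76, 48 were lower, 2 were higher and 26 were not called, and 66 of the differences lay below 0. The background in this comparison was 25.2% of all probe sets called, 10.1% lower and 15.1% higher, and with 1 probe set per gene 34.2% were called, 18.9% lower and 15.3% higher. The median difference of the 76 was -0.33, against 0.08 for all probe sets and 0.01 for all genes. Ribosome and import genes had medians close to each other, -0.33 for the 58 ribosome genes and -0.32 for the 18 import genes. In 16 of the 76 the signal fell by more than 1.5 times, as it did in 600 of all 6765 genes. In bulk tissue, fewer cells of a type and less of a transcript per cell cannot be told apart.

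**Figure D1:**
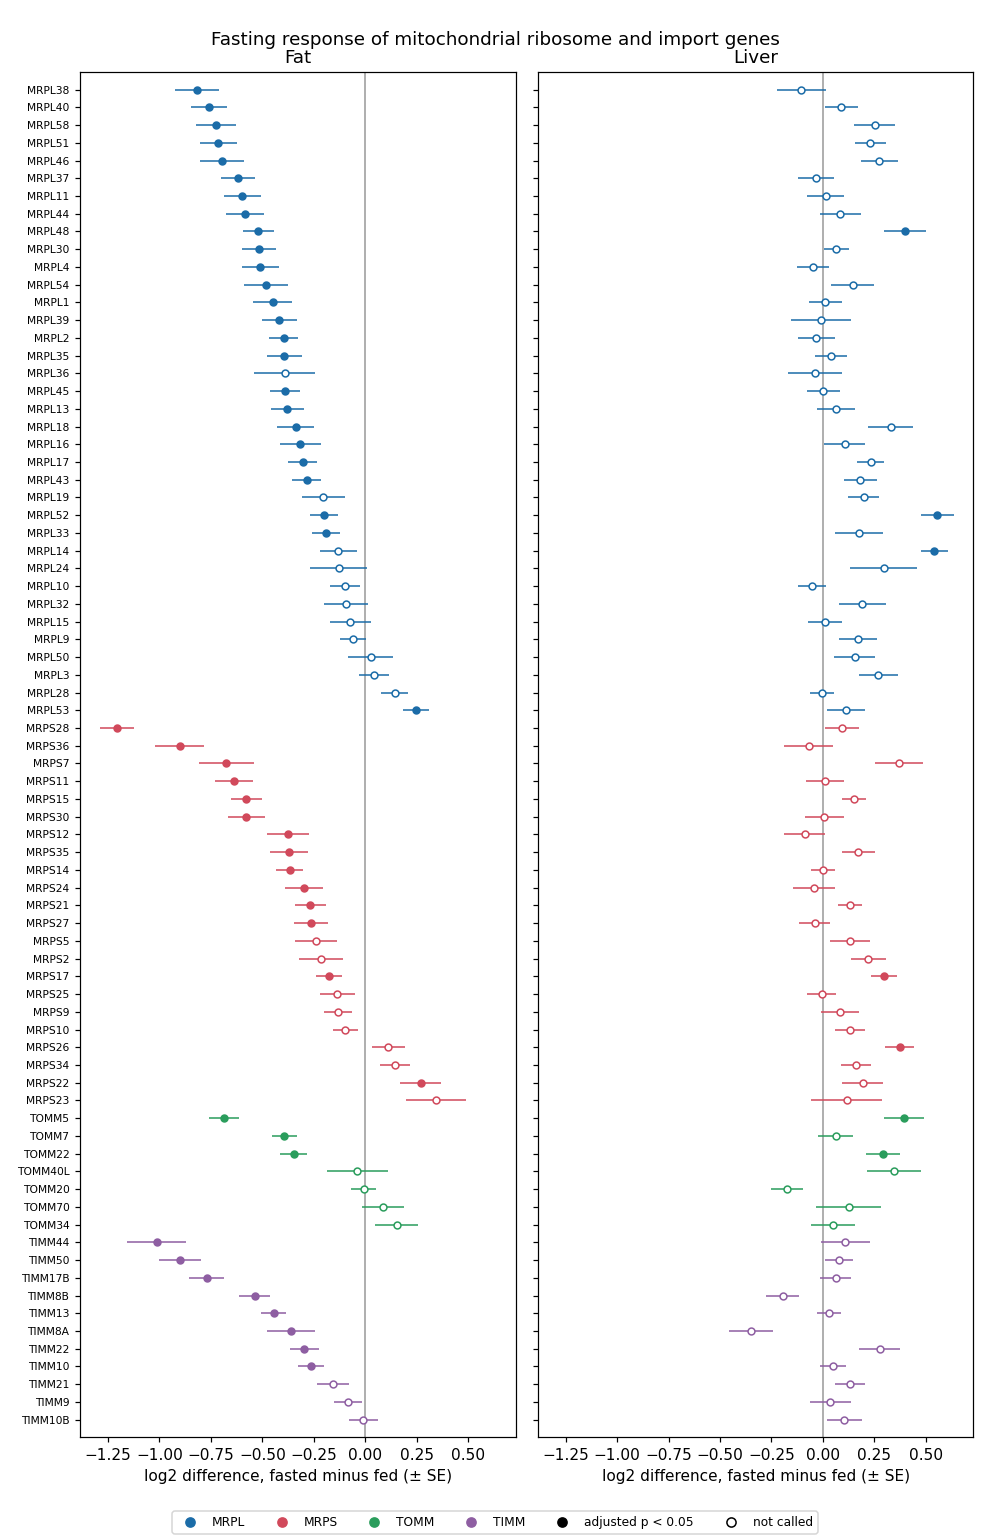
Log2 difference between fasted and fed gilts (x axis, bars ± SE) for each of the 76 genes (y axis, by family), in fat on the left and in liver on the right; each side rests on 12 fasted and 12 fed arrays. Filled points passed the adjusted p of 0.05: 48 lower and 2 higher in fat, 7 higher in liver.

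Large-subunit genes gave 24 lower and 1 higher of 36, with a median of -0.38. MRPL38, a protein of the central protuberance that faces the small subunit, had the largest difference. MRPL38 signals ran from 309 to 608 with a median of 440.0 in fasted fat, against 585 to 1089 with a median of 787 in fed fat. The fasted signals were lower than the fed ones, and the ranges overlapped only through the lowest fed array. The log2 difference was -0.82 ± 0.11 (SE, adjusted p = 8.5e-06), and all 12 fasted arrays lay below the fed median. MRPL40, another protein of the central protuberance, was -0.76. MRPL40 signals ran from 442 to 731 with a median of 604 in fasted fat, against 777 to 1405 with a median of 959 in fed fat. Every fasted array was below every fed array for MRPL40. MRPL58, a peptidyl-tRNA hydrolase built into the large subunit, was -0.73, and MRPL51 was -0.71. The 24 lower genes ran from -0.82 to -0.19.

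MRPL53 was the large-subunit gene that was higher. MRPL53 signals ran from 2617 to 3981 with a median of 3375 in fasted fat, against 2399 to 3076 with a median of 2878 in fed fat. The groups overlapped, with 10 of 12 fasted arrays above the fed median, and the difference was 0.25 ± 0.063 (SE, adjusted p = 0.00602). The call of MRPL53 was lost in 3 of 18 settings, with centring on the array median and without the fat arrays rich in hepatocyte or in muscle transcripts. The 11 large-subunit genes not called were MRPL3 (0.04), MRPL9 (-0.06), MRPL10 (-0.10), MRPL14 (-0.13), MRPL15 (-0.07), MRPL19 (-0.20), MRPL24 (-0.13), MRPL28 (0.14), MRPL32 (-0.10), MRPL36 (-0.39) and MRPL50 (0.03). MRPL36 was thus as far below 0 as many called genes, and its signals varied more within groups (351 to 810.3 in fasted fat, 439 to 1042 in fed fat).

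Small-subunit genes gave 13 lower and 1 higher of 22, with a median of -0.26. MRPS28, a protein of the small subunit, differed more than any other of the 76. MRPS28 signals ran from 228 to 319.7 with a median of 249 in fasted fat, against 373 to 929 with a median of 601 in fed fat. Every fasted array lay below the lowest fed one. The difference was -1.21 ± 0.084 (SE, adjusted p = 3.2e-09), a signal 0.434 times that of fed fat. The next were MRPS36, first named as a ribosomal protein and now placed in the 2-oxoglutarate dehydrogenase complex, at -0.90, MRPS7 of the subunit's head at -0.67, and MRPS11 of its platform at -0.64. MRPS15 (-0.58) and MRPS30 (-0.58), a protein that sits in the large subunit despite its name, also had every fasted array below every fed array. With MRPL40 and MRPS28 these made 4 of 76 genes (5.26%) with groups fully apart in this direction, against 2.45% of all genes.

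MRPS22 was the small-subunit gene called higher, a call that was lost in 14 of 18 alternative settings, among them 5 of the 6 that leave out a replicate number. MRPS22 signals ran from 426 to 898 with a median of 661 in fasted fat, against 377 to 656 with a median of 529 in fed fat. The ranges overlapped widely, and the difference was 0.27 ± 0.098 (SE, adjusted p = 0.0496), close to the threshold. The 8 not called were MRPS2 (-0.22), MRPS5 (-0.24), MRPS9 (-0.13), MRPS10 (-0.10), MRPS23 (0.34), MRPS25 (-0.13), MRPS26 (0.11) and MRPS34 (0.15). MRPS23 had signals of 103 to 192 in fasted fat and 78.1 to 152 in fed fat.

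**Figure D2:**
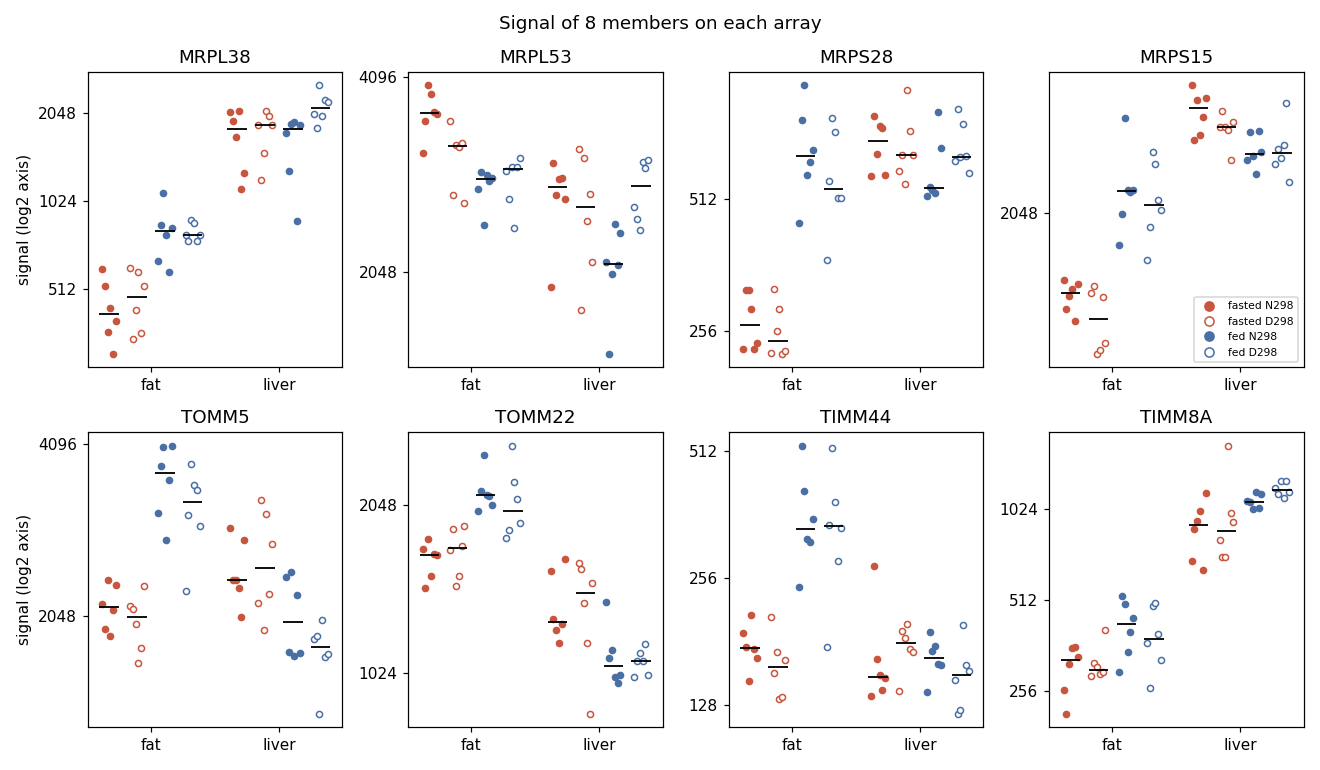
Signal of 8 genes on each array (y axis, log2 scale), fat on the left and liver on the right of each panel, with fasted N298, fasted D298, fed N298 and fed D298 gilts in that order and a line at each group's median. In fat MRPS28 and MRPS15 have every fasted array below every fed one, MRPL53 is higher when fasted, and TOMM5 and TOMM22 are lower when fasted in fat and higher in liver.

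In the TOM family 3 of 7 genes were lower and none was higher, with a median of -0.04. The 3 were TOMM5 and TOMM7, small subunits of the TOM core, and TOMM22, its central receptor. TOMM5 signals ran from 1690.2 to 2367 with a median of 2099.6 in fasted fat, against 2262 to 4074 with a median of 3439 in fed fat. Fasted signals were all below the fed median, and the ranges overlapped only through the lowest fed array. The difference was -0.69 ± 0.073 (SE, adjusted p = 7.2e-07) for TOMM5, -0.39 ± 0.060 (SE, adjusted p = 4.8e-05) for TOMM7 and -0.35 ± 0.066 (SE, adjusted p = 4.3e-04) for TOMM22. The other receptors, TOMM20 (-0.01) and TOMM70 (0.09), were not called, nor were TOMM40L (-0.04), a paralog of the channel protein, and TOMM34 (0.15), a cytosolic co-chaperone. TOMM20 had signals of 1489 to 2023 in fasted fat, against 1500.2 to 2010.4 in fed fat, which is almost the same range.

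In the TIM family 8 of 11 genes were lower, none was higher and all 11 differences were below 0, with a median of -0.36. TIMM44, which tethers the import motor to the TIM23 channel, led the family. TIMM44 signals ran from 132 to 209 with a median of 168 in fasted fat, against 176 to 526 with a median of 339 in fed fat. Fasted signals were tightly grouped and fed signals spread over a wide range, and only the lowest fed array lay inside the fasted range. The fasted signals of TIMM44 lay around the median signal of the fat arrays, which was 159 to 192. The difference was -1.01 ± 0.14 (SE, adjusted p = 2.0e-05). TIMM50, the TIM23 receptor for presequences, was -0.90 ± 0.10 (SE, adjusted p = 1.5e-06), and TIMM17B of the same channel was -0.77 ± 0.086 (SE, adjusted p = 1.2e-06). TIMM21, which links TIM23 to the TOM complex, was not called at -0.16. Among the small chaperones of the intermembrane space TIMM8B (-0.54), TIMM13 (-0.45), TIMM8A (-0.36) and TIMM10 (-0.26) were lower, while TIMM9 (-0.08) and TIMM10B (-0.01) were not called. TIMM22, the channel of the carrier pathway, was -0.30 and called.

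Averaged over the 76 genes, the mean log2 signal of a fat array was 9.31 to 9.52 with a median of 9.41 in fasted gilts, against 9.47 to 9.98 with a median of 9.72 in fed gilts. The ranges overlapped only through the lowest fed array, and the fasted arrays were spread less widely (SD 0.0694 in fasted fat, against 0.139 in fed fat, n = 12 each). By family the fasted and fed means were 9.57 ± 0.0708 and 9.91 ± 0.138 for MRPL, 9.09 ± 0.0904 and 9.40 ± 0.154 for MRPS, 9.80 ± 0.107 and 9.98 ± 0.127 for TOMM, and 9.29 ± 0.0599 and 9.73 ± 0.179 for TIMM (SD, n = 12 each).

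**Figure D3:**
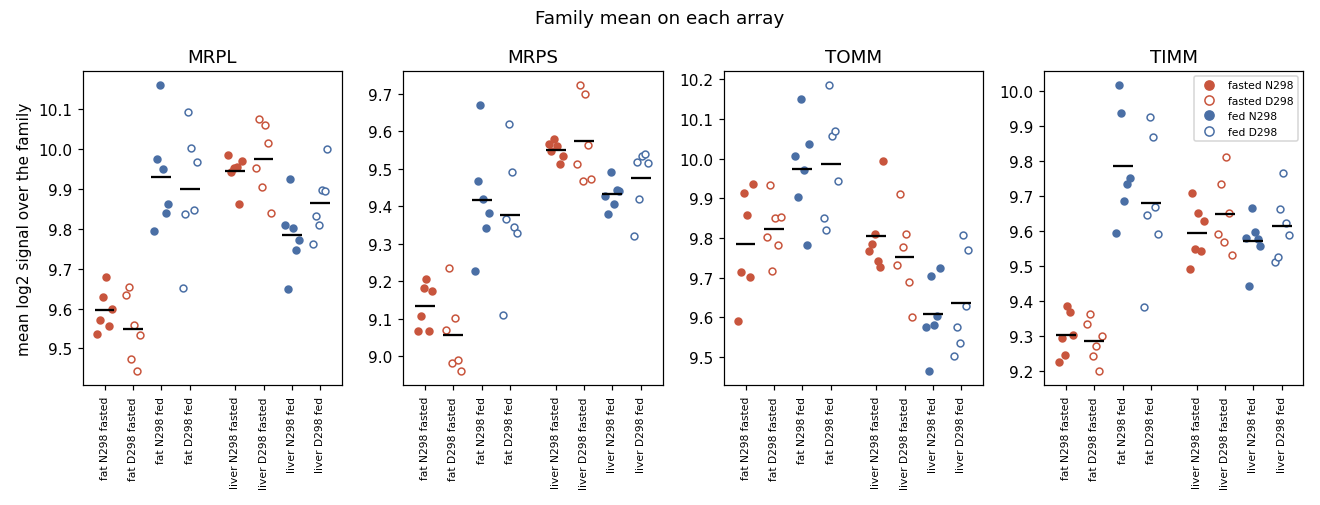
Mean log2 signal of each family on every array (y axis), 8 groups of 6 arrays by tissue, genotype and feeding (x axis), with a line at each group mean. Fasted fat lies below fed fat in each family, while in liver the fasted groups lie at or slightly above the fed ones; family heights are not comparable with each other.

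Both genotypes gave this pattern. Within N298 gilts 34 of the 76 were called lower and 3 higher in fasted fat, with a median of -0.31. The background was 6.43% lower and 9.07% higher over all probe sets, and 12.8% and 9.53% with 1 probe set per gene. Within D298 gilts 36 were lower and none was higher, also with a median of -0.31. The background was 6.08% lower and 6.57% higher over all probe sets, and 11.7% and 7.36% with 1 probe set per gene. Across the 76 genes the 2 genotypes' differences, which share no animal, had a Pearson r of 0.851, and 61 genes were below 0 in both. Genes on 1 array are not independent of each other. Some marker lists lay on opposite sides of 0 in the genotypes. The 6 skeletal muscle markers were all below 0 in fasted N298 fat (median -0.59) and all above 0 in fasted D298 fat (median 0.71), and the 5 macrophage markers were likewise all below 0 (median -0.36) and all above 0 (median 0.67), none of them called. Of the 4 lymphocyte markers none was called within N298 gilts and 1 was higher within D298 gilts (0.97). Of the 9 hepatocyte markers 8 were below 0 within N298 gilts and 2 within D298 gilts, and 1 was called higher in each. Muscle marker sums ran from 457 to 90062 in fasted and 216 to 61833 in fed N298 fat, and from 174 to 94253 in fasted and 319 to 28903 in fed D298 fat. The interaction of genotype and fasting was called for none of these markers, and their part in the result was not tested.

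Some cell markers moved in fasted fat too. Of 6 endothelial markers 4 were higher, with a summed signal of 13630 to 23212 in fasted fat, against 9657 to 15309 in fed fat. Of 4 fibroblast markers 2 were lower, with sums of 17770 to 30009 in fasted fat, against 25907 to 40563 in fed fat. Of 6 adipocyte markers CFD was higher and LPL lower, and HBB of the 2 erythroid markers was higher. Of the 9 hepatocyte markers APOA1 was called, higher at 0.70, while 7 of the 9 lay below 0 with none of them called, and the median was -0.55. Over both genotypes none of the muscle, macrophage or lymphocyte markers was called, and no marker of any list was at 0. Their part in the result was not tested. Leaving out the 4 fat arrays with hepatocyte transcripts gave 40 lower genes at a median of -0.28. A fit with the mean of the muscle markers as a covariate gave 46 at a median of -0.33. The share of all genes called in these fits is not given here. Without the 12 fat arrays above the muscle cutoff, which leaves 12 arrays, 16 of the 76 were called lower (with 7.26% of all genes lower) at a median of -0.38, and 65 were below 0. That fit kept the replicate number as a block, and numbers 1, 4 and 6 then held arrays of only 1 feeding state. Whether fewer calls came from muscle transcripts or from fewer usable arrays was not tested.

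Where a gene had more than 1 probe set, the others mostly pointed the same way. The 17 such genes had 23 further probe sets, of which 16 were below 0 in fasted fat, 8 were called lower and 2 higher. MRPL33 was split, at -0.19 on its brightest probe set and 0.56 on its other, both called, so its direction is uncertain. MRPL3 was 0.04 and not called on its brightest probe set, and 0.30 and called on another. MRPS12, the protein of the decoding centre, was -0.38 on the brightest and -1.13 on another, both called.

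Genes that work beside the ribosome and the translocases were read from 7 further lists. Of all genes 18.9% were lower and 15.3% higher in fasted fat. In fasted fat the elongation factors TUFM (-0.90), TSFM (-0.46) and GFM1 (-0.33) were lower, 3 of 7 measured translation factors, while release and recycling factors and the formyltransferase MTFMT were not called. Of 4 further ribosomal subunits named otherwise, DAP3 (-0.33) and CHCHD1 (-0.30) were lower. Among 11 mitochondrial aminoacyl-tRNA synthetases and amidotransferase subunits 5 were lower, with FARS2 (-0.56), QRSL1 (-0.39), IARS2 (-0.31) and GARS (-0.32) first by p, and GARS also makes the cytosolic enzyme. Of 14 assembly and RNA modification factors 2 were lower, MTG1 (-0.49) and MALSU1 (-0.30), and 2 higher, the methyltransferase MRM2 (0.25) and the RNA-binding protein SLIRP (0.19). This is 14.3% each way, no more than the shares of all genes.

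Of 13 other import factors 8 were lower and 1 was higher. AIFM1 (-0.98), which anchors the intermembrane import protein CHCHD4, ROMO1 (-0.84), the motor co-chaperone DNAJC19 (-0.71) and the motor chaperone HSPA9 (-0.64) came first by p, and the inner membrane peptidase subunit IMMP2L (0.70) was the one that was higher. Of 8 chaperones and proteases of the matrix and inner membrane 5 were lower, with HSPE1 (-0.70) and HSPD1 (-0.49), the co-chaperonin and chaperonin of the matrix, PHB2 (-0.32) of the prohibitin ring and TRAP1 (-0.32) first by p. Of 6 measured regulators of mitochondrial biogenesis none was lower and PPRC1 (0.56), a coactivator related to PGC-1alpha, was higher. That is 16.7% higher, close to the 15.3% of all genes. TFAM, which packages and transcribes mitochondrial DNA, was 0.15 and not called.

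**Figure D4:**
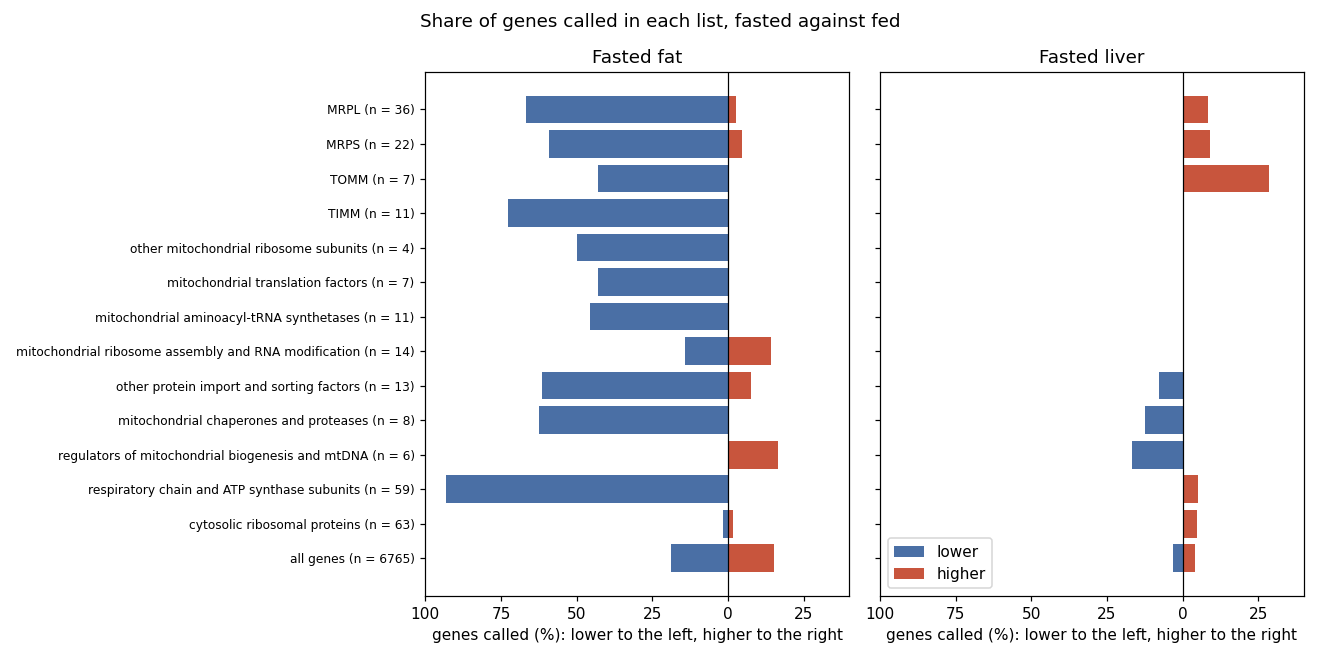
Share of the measured genes called lower (to the left) and higher (to the right) in fasted against fed gilts, in percent (x axis), for the 4 families, 7 lists of related genes, respiratory chain subunits, cytosolic ribosomal proteins and all genes, in fat and in liver. In fat the families lie between the respiratory chain, with 55 of 59 genes lower, and cytosolic ribosomal proteins, with 1 of 63 lower.

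Respiratory chain genes and those of the cytosolic ribosome lay on either side. Of 59 respiratory chain and ATP synthase genes encoded in the nucleus, 55 were lower in fasted fat, with a median of -0.73. Of 63 cytosolic ribosomal protein genes 1 was lower and 1 higher, with a median of -0.01. The difference between these lists and the 76 genes was not tested.

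In fasted liver the same genes moved little, and those called were higher. Of the 76, 7 were higher and none was lower by limma, 26 had an unadjusted p under 0.05, and 17 differences lay below 0. The background was 4.47% of all probe sets called, 2.27% higher and 2.20% lower, and with 1 probe set per gene 7.20% were called, 4.09% higher and 3.10% lower. At the unadjusted threshold 16.7% of all probe sets passed. The median was 0.11, against -0.04 for all probe sets and 0.0048 for all genes. The 7 were the large-subunit genes MRPL52, MRPL14 and MRPL48, the small-subunit genes MRPS26 and MRPS17, and TOMM5 and TOMM22.

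MRPL14 signals ran from 1485 to 1964 with a median of 1672 in fasted liver, against 961 to 1376 with a median of 1149 in fed liver. All 12 fasted arrays were above all 12 fed arrays, 1 of 76 genes, against 0.414% of all genes with groups apart in this direction. The difference was 0.54 ± 0.066 (SE, adjusted p = 1.7e-05). For MRPL52, signals ran from 1453 to 2512 with a median of 2084 in fasted liver, against 1096 to 1707 with a median of 1439 in fed liver. Its ranges overlapped, all fasted arrays were above the fed median, and the difference was 0.56 ± 0.079 (SE, adjusted p = 1.1e-04). Its other probe sets gave 0.25 and -0.91, neither called, and the mean over all of them was -0.037.

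MRPS26 signals ran from 1446 to 2139 with a median of 1713 in fasted liver, against 1014 to 1704 with a median of 1319 in fed liver. The ranges overlapped, with the fasted arrays all above the fed median, and the difference was 0.37 ± 0.070 (SE, adjusted p = 0.00226). TOMM5 signals ran from 1932 to 3274 with a median of 2365 in fasted liver, against 1377 to 2445 with a median of 1815 in fed liver. The TOMM5 difference was 0.39 ± 0.097 (SE, adjusted p = 0.0206), and that of TOMM22 was 0.29 ± 0.082 (SE, adjusted p = 0.044). MRPL48 was 0.40 and MRPS17 0.30, both called.

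No TIM gene was called in liver. The largest difference was that of TIMM8A, a small chaperone of the intermembrane space. TIMM8A signals ran from 642 to 1663 with a median of 903 in fasted liver, against 1024 to 1270.0 with a median of 1146 in fed liver. Fasted arrays held the lowest signals and also the highest one, and the difference of -0.35 ± 0.11 (SE, adjusted p = 0.0669) was not called. Between the genotypes' differences in liver r was 0.364 over the 76 genes, 39 were above 0 in both genotypes and 31 had opposite signs. Within N298 gilts MRPL14 and MRPL52 were called higher, and within D298 gilts MRPL14, MRPL52 and MRPS26 (background 0.775% and 0.758% higher over all probe sets, 1.52% and 1.39% with 1 probe set per gene).

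Of the related lists few genes were called in liver. MIPEP (-0.46), which trims imported precursors, CLPB (-0.36), a disaggregase, and MYC (-0.67) were lower, and no related gene was higher. Respiratory chain genes had 3 of 59 higher with a median of 0.03, and cytosolic ribosomal protein genes 3 of 63 higher with a median of 0.10. These shares, 5.08% and 4.76%, were close to the 4.09% of all genes that were higher.

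The fasting responses of the tissues were then compared directly, as the difference in fat minus the difference in liver. It was below 0 for 70 of the 76 genes and called lower for 46, higher for none. The background was 16.1% of all probe sets called, 7.26% lower and 8.84% higher, and with 1 probe set per gene 24.0% were called, 15.1% lower and 8.91% higher. The median was -0.42, against 0.12 for all probe sets. By family 25 MRPL, 10 MRPS, 3 TOMM and 8 TIMM genes were called. This comparison used the same arrays as those within each tissue.

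The largest was that of MRPS28, -1.30 ± 0.15 (SE, adjusted p = 3.8e-09), which was -1.21 in fat and 0.09 in liver. TIMM44 was -1.12 ± 0.18 (SE, adjusted p = 5.7e-06), with -1.01 in fat and 0.11 in liver. TOMM5 was -1.08 ± 0.12 (SE, adjusted p = 2.9e-09), and here both tissues contributed, at -0.69 in fat and 0.39 in liver. Among large-subunit genes MRPL58 led at -0.98 ± 0.13 (SE, adjusted p = 3.8e-07), with -0.73 in fat and 0.25 in liver. MRPL46 (-0.97), MRPL51 (-0.94), MRPL48 (-0.92), MRPS7 (-1.04), MRPS36 (-0.83), MRPS15 (-0.73), TOMM22 (-0.64), TOMM7 (-0.45), TIMM50 (-0.98), TIMM17B (-0.83) and TIMM22 (-0.57) were the next in their families. Of the 48 genes called lower in fat, 43 had a called difference from liver, and 5 were also called higher in liver. MRPL48, MRPL52, MRPS17, TOMM5 and TOMM22 were those 5. In fat the calls of MRPL52 and MRPS17 were each lost in 9 of 18 settings, and MRPL52 was -0.058 as the mean over its probe sets. In the difference of responses MRPL52 was -0.76 on its brightest probe set, while its dimmest was 1.29, both called. The mean over its probe sets was -0.021 in that comparison, so the direction of MRPL52 is uncertain there. In liver the calls of MRPL48 and TOMM5 were each lost in 5 of 15 settings and that of TOMM22 in 8, mostly on leaving out a replicate number.

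The 30 genes whose responses were not called different ran from -0.44 for MRPS2 to 0.23 for MRPS23. In the large subunit they were MRPL3 (-0.22), MRPL9 (-0.23), MRPL10 (-0.05), MRPL15 (-0.08), MRPL24 (-0.42), MRPL28 (0.15), MRPL32 (-0.29), MRPL36 (-0.35), MRPL39 (-0.41), MRPL50 (-0.13) and MRPL53 (0.13). In the small subunit they were MRPS2 (-0.44), MRPS5 (-0.37), MRPS9 (-0.22), MRPS10 (-0.23), MRPS12 (-0.29), MRPS22 (0.08), MRPS23 (0.23), MRPS24 (-0.26), MRPS25 (-0.13), MRPS26 (-0.26), MRPS27 (-0.22) and MRPS34 (-0.02). Among import genes they were TOMM20 (0.17), TOMM34 (0.10), TOMM40L (-0.38), TOMM70 (-0.04), TIMM8A (-0.01), TIMM9 (-0.12) and TIMM10B (-0.11). Of the further probe sets of these genes, 1 of MRPS12 (-0.98) and 1 of MRPL32 (-0.48) were called lower in this comparison. TIMM8A was close to the same in the 2 tissues, -0.36 in fat and -0.35 in liver. Across the 76 genes the size of the response in fat said little of that in liver, with a Pearson r of 0.136.

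Between tissues the genes split. In fat, taken over all gilts, 22 were higher and 38 lower than in liver, and 16 were not called, against a background of 72.0% of probe sets called, 46.9% higher and 25.2% lower (80.3%, 46.9% and 33.4% with 1 probe set per gene). The median was -0.12, against 0.26 for all probe sets and 0.14 for all genes. With each array centred on its median, 13 were higher and 56 lower, with a median of -0.48, since that step moved the median of all probe sets to -0.10.

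MRPL38 and TIMM8A were the furthest below 0. MRPL38 signals ran from 309 to 1089 with a median of 604 in fat, against 874 to 2536 with a median of 1867 in liver. The ranges overlapped only through a few of the highest fat arrays and the lowest liver array, and the difference was -1.55 ± 0.083 (SE, adjusted p = 5.1e-22). The other, dimmer probe set of MRPL38 was 0.36 and not called, and the mean over its probe sets was -0.60. TIMM8A signals ran from 215 to 529 with a median of 338 in fat, against 642 to 1663 with a median of 1055 in liver. Every fat array was below every liver array for TIMM8A, and the difference was -1.54 ± 0.080 (SE, adjusted p = 1.3e-22). MRPL4, MRPS17 and MRPS27 also had all fat arrays below all liver arrays, which made 4 of 76 against 10.5% of all genes.

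MRPS17 signals ran from 779 to 1357 with a median of 1035 in fat, against 1502 to 3025 with a median of 2131 in liver. Its difference was -1.04 ± 0.047 (SE, adjusted p = 6.2e-25). Further genes lower in fat were MRPL4 (-1.32), MRPL1 (-1.06), MRPL14 (-0.77), MRPS24 (-1.03), MRPS27 (-0.92), MRPS26 (-0.73), TIMM17B (-0.55), TIMM13 (-0.34) and TIMM8B (-0.27, not called at -0.095 with quantile normalization). The 16 not called were MRPL3 (-0.09), MRPL13 (0.09), MRPL18 (-0.09), MRPL24 (-0.22), MRPL39 (-0.12), MRPL45 (0.05), MRPL51 (0.09), MRPL54 (0.04), MRPS5 (0.14), MRPS12 (-0.11), MRPS35 (0.09), MRPS36 (-0.07), TOMM20 (-0.07), TIMM10B (-0.09), TIMM21 (-0.03) and TIMM50 (-0.02). Other probe sets of MRPS12 gave -0.95 and -1.21, and those of MRPL3 gave 0.48 and -0.31, all called. In the TOM family TOMM34 (-0.51) and the receptor TOMM70 (-0.35) were lower.

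TOMM40L was among the genes higher in fat. TOMM40L signals ran from 112 to 450.4 with a median of 306 in fat, against 103 to 453 with a median of 154 in liver. Most liver arrays were low, but the highest reached the top of the fat range, and the difference was 0.87 ± 0.11 (SE, adjusted p = 5.7e-10). TOMM22 (0.64), TOMM7 (0.50) and TOMM5 (0.27, below 0 with centring on the array median) were higher too. In the TIM family TIMM9 (0.66), TIMM44 (0.54), TIMM10 (0.44) and TIMM22 (0.17, below 0 with quantile normalization and with centring) were higher. TIMM44 was not called with quantile normalization (0.19) or with centring (0.18), nor TIMM10 with centring (0.083).

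Among ribosomal genes MRPL30 (0.93) and MRPS9 (0.91) were higher on every fat array than on any liver array, 2 of 76 against 12.5% of all genes. MRPL30 signals ran from 1848 to 4256 with a median of 2581 in fat, against 1217 to 1602 with a median of 1405 in liver. MRPL15 (0.86), MRPL10 (0.66), MRPL44 (0.63), MRPL33 (0.60), MRPL9 (0.51), MRPL17 (0.43), MRPS10 (0.65) and MRPS34 (0.54) were also higher. MRPL35 (0.31), MRPL53 (0.30), MRPS21 (0.19) and MRPS23 (0.22) were higher as deposited and below 0 with centring on the array median. MRPS23 was below 0 with quantile normalization too, and its call was lost in 8 further settings of 17, among them 4 that leave out a replicate number. MRPL17 was not called with centring (0.074).

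The split between tissues depended on feeding. In fasted gilts 17 of the 76 were higher and 47 lower in fat than in liver, with a median of -0.40 (background 44.3% higher and 22.1% lower over all probe sets, 42.5% and 32.2% with 1 probe set per gene). In fed gilts 31 were higher and 22 lower, with a median of 0.09 (background 40.2% higher and 22.1% lower over all probe sets, 43.8% and 29.0% with 1 probe set per gene). MRPS28 was -1.36 in fasted gilts and -0.06 in fed gilts, where it was not called. TOMM5 was -0.27 in fasted gilts and 0.81 in fed gilts, called in both and in opposite directions. TIMM44 was -0.02 in fasted gilts, not called, and 1.10 in fed gilts. TIMM8A kept its distance, at -1.54 in fasted and -1.53 in fed gilts. These shifts are the difference of the fasting responses given above, seen from the other side, and add no independent evidence.

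**Figure D5:**
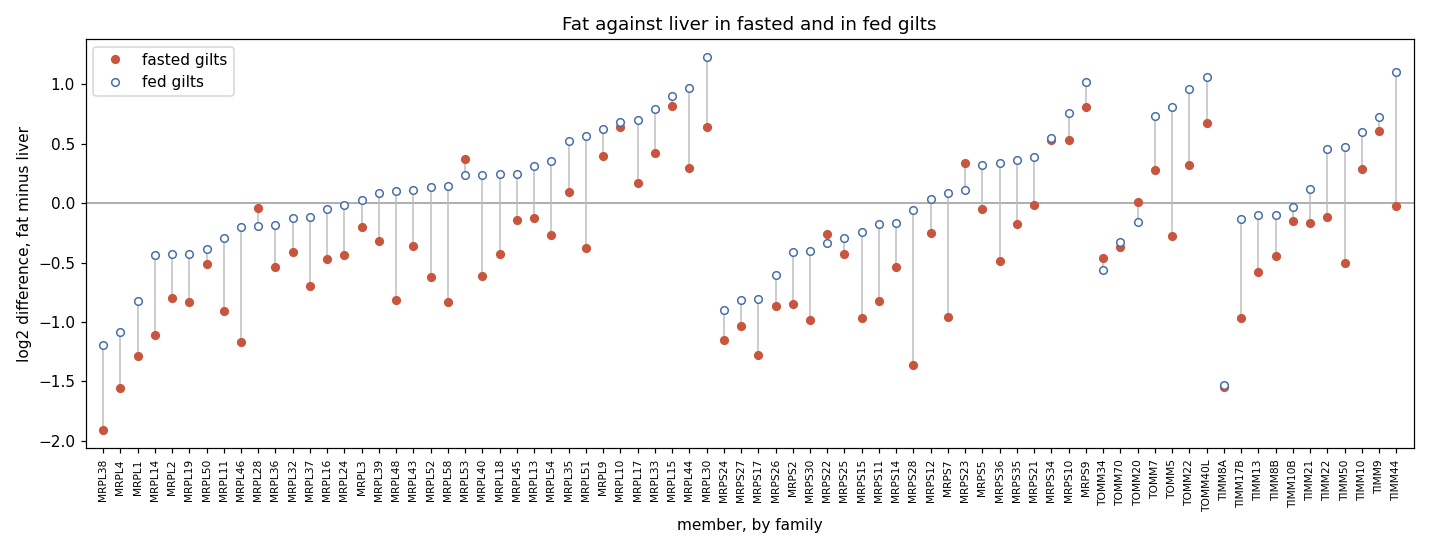
Log2 difference between fat and liver (y axis) for each of the 76 genes (x axis, by family), in fasted gilts (filled points) and in fed gilts (open points), 12 gilts each. For 70 of the 76 genes the filled point lies below the open one, and the medians are -0.40 in fasted and 0.09 in fed gilts.

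None of these genes was called between genotypes. Between N298 and D298 gilts limma called 0 of the 23999 probe sets in fat and 0 in liver, with 5.50% and 5.05% at an unadjusted p under 0.05, and 3 of the 76 genes at that level in each tissue. In fat they were MRPL10 (0.20), TIMM10 (0.15) and MRPS9 (0.16), followed by MRPL44 (0.19) and TOMM34 (-0.21). In liver they were MRPL36 (-0.29), MRPL38 (-0.27) and TIMM8B (-0.17), followed by MRPL16 (-0.20) and MRPS26 (-0.14). The medians over the 76 were 0.04 in fat and -0.05 in liver.

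Nor did the fasting response differ between genotypes in any called gene. The interaction had 0 calls in either tissue, with 5.70% of probe sets in fat and 5.79% in liver at an unadjusted p under 0.05, and 4 and 5 of the 76 genes at that level. In fat these were MRPS34 (0.41), MRPL52 (0.36), MRPS22 (0.51) and MRPS12 (-0.48), with MRPL53 (0.26) next. MRPS22 in fat had signals of 580.2 to 898 (median 678) in fasted N298 gilts and 377 to 604 (median 511) in fed N298 gilts. In D298 gilts it had 426 to 771 (median 564) when fasted and 481 to 656 (median 609) when fed. The 4 ranges overlapped. In liver the genes were TOMM20 (0.43), MRPL53 (0.48), MRPL2 (0.41), MRPL24 (-0.73) and MRPL28 (0.25). With 6 gilts a group, a p that misses the threshold does not show that the genotypes respond alike.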

How the data were processed

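Fat and liver of 24 gilts were measured on 48 Affymetrix porcine arrays. Per the submitters' processing notes, signal intensities were computed by the authors with MAS5 in the affy package, and the notes name no version. The deposited intensity values are linear, without zeros, with a trimmed mean (2% left out at each end) of about 500 on every array. The 124 control probe sets among 24123 were set aside, and the other 23999 entered the tests on log2 intensity with nothing added and no filter on dim signal.

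Each gene was read by its brightest probe set. The RefSeq table held the gene ID of 75 of the 76 genes (not MRPS25), with no change of symbol, and 6 probe sets of these families with several symbols were left out. Positions and sequences are not given here.

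With limma 3.58.1 (R 4.3.3), lmFit and a trended eBayes (2-sided, Benjamini-Hochberg over all probe sets) were fitted to the 4 groups of each tissue with the replicate number, from the titles, as a block of 6 levels. The series' design text states blocks, and that the number in the title is that block is an assumption. Tissues were compared over 8 groups with the gilt as a random block (correlation 0.0841). Fat and liver of equal genotype, feeding and number were assumed to come from 1 gilt, which no label used here states, and the tissue comparisons were repeated without this block. Arrays, not read depth, limit precision, and p-values measure the spread between gilts.

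The genes, their lists and the tests were chosen with earlier results of these data known. Named genes are the 4 called genes of each family with the largest change in each direction, all those not called or called against most of their family, and in comparisons with few calls those called or the 5 with the smallest p. For related lists they are called genes by p, up to 4 in the list's main direction and up to 2 against it. Alternatives were other scalings, a filter, 32 added before log2, other model settings, all probe sets of a gene, and leaving out each replicate number. Those on marker-rich arrays and the GAPDH ratio were added after seeing the data.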

Additional observations from a re-analysis of the deposited data

Results flagged for a closer look

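Of 112 groups of 6 arrays checked for a sample far from the others, 11 had one, where chance flags about 1 in 20. All values in this paragraph are log2 signals. In fat, TOMM40L was 6.80 on the array of fed N298 gilt 5, against 8.25 to 8.82 on the other fed N298 arrays, and TIMM8A was 8.67 in fasted D298 gilt 6, against 8.17 to 8.31. MRPL52 was 10.28 in fed D298 gilt 1, against 10.63 to 10.84, and MRPS26 was 9.31 in fed D298 gilt 5, against 9.70 to 9.90. In liver, TOMM40L was 8.82 in fasted D298 gilt 2, against 7.19 to 7.53 on the other fasted D298 arrays, and TIMM44 was 8.09 in fasted N298 gilt 2, against 7.07 to 7.36. MRPL52 was 10.51 in fasted D298 gilt 5, against 10.89 to 11.08. MRPS17 was 11.56 in fasted D298 gilt 4, against 11.07 to 11.23, and MRPS26 was 11.06 in fasted N298 gilt 5, against 10.50 to 10.68. The mean over the MRPL genes was 9.86 in fasted N298 gilt 5, against 9.94 to 9.98, and that over the TOMM genes was 9.99 in fasted N298 gilt 6, against 9.73 to 9.81.

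The fasting response differed between fat and liver, by the test of the difference itself, in 46 of the 76 genes, all lower in fat. Of all genes 15.1% were called lower in this test. The named differences were MRPL46 (-0.97), MRPL48 (-0.92), MRPL51 (-0.94), MRPL58 (-0.98), MRPS7 (-1.04), MRPS15 (-0.73), MRPS28 (-1.30), MRPS36 (-0.83), TOMM5 (-1.08), TOMM7 (-0.45), TOMM22 (-0.64), TIMM17B (-0.83), TIMM22 (-0.57), TIMM44 (-1.12) and TIMM50 (-0.98).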

How the results depend on the processing

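Of the 50 genes called in fasted fat 15 were called under every alternative, and 23 lost their call only without the 12 fat arrays rich in muscle transcripts. There 16 genes were lower with 6 arrays on each side. Replicate numbers 1, 4 and 6 then held only 1 feeding state, so with the block kept fewer arrays carried the comparison. Leaving out each replicate number gave 39 to 47 lower and 1 to 2 higher genes. The shares of all genes called in those fits are not given here. Whether fewer calls came from fewer arrays was not tested. The 2 higher genes became 1 with quantile normalization, with 32 added, without trend, without the block (no replicate block), with the muscle covariate and with the GAPDH covariate. They became 0 with centring on the array median and without the arrays rich in hepatocyte or muscle transcripts, and 4 with the mean over all probe sets. Centring also moved the calls over all probe sets in fat to 2302 higher and 3032 lower, against 3633 and 2415 as deposited.

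In liver 3 of the 7 calls held under every alternative. The 7 became 4 without trend, and 4 to 7 on leaving out a replicate number. They rose to 10 with centring, to 9 with the filter on dim probe sets, and to 8 with quantile normalization and with array weights. The count of lower genes became 1 with the filter on dim probe sets and with array weights, and was 0 to 1 on leaving out a number. Shares of all genes called in these liver fits are not given here. MRPL52 in liver was -0.037 as the mean over its probe sets.

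Between tissues the median became -0.35 with quantile normalization and -0.48 with centring, where 13 genes were higher. Over all probe sets the calls were then 9137 higher and 8035 lower, and 7807 higher and 9438 lower, against 11252 and 6039. With quantile normalization MRPL54 (-0.26), MRPS23 (-0.13), MRPS35 (-0.17) and TIMM22 (-0.11) turned below 0. With centring MRPL13 (-0.27), MRPL35 (-0.055), MRPL45 (-0.31), MRPL51 (-0.27), MRPL53 (-0.059), MRPL54 (-0.32), MRPS5 (-0.22), MRPS21 (-0.18), MRPS23 (-0.14), MRPS35 (-0.27), TOMM5 (-0.093) and TIMM22 (-0.19) did, and MRPL3 was 0.026 as the mean over its probe sets. Centring moved the median difference of responses to -0.56 and the median interaction in liver to 0.17. The cause was not tested.

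Arrays of 1 number in a tissue were at most weakly alike (mean r of residuals -0.01 to 0.07, against -0.05 for different numbers). These values are not like for like, since only different numbers include pairs within a group, where residuals lean below 0 by construction. The data do not bear out the number as the block that the design text mentions. Without it 46 genes were lower in fat and 7 higher in liver. Without the gilt block 21 genes were higher and 38 lower in fat than in liver, and 44 had a called difference of responses. Shares of all genes called in these fits without a block are not given here. Of 24 fat arrays 22 correlated best with the liver array of their own gilt number, at r of 0.02 to 0.06.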
